A study of Bos taurus with 7 samples.

Results

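The leading fragment of 18S ribosomal RNA (rRNA) in cow's milk, a 14-nt sequence, was followed with its shorter, longer and mismatched forms through 7 small RNA libraries. The members were found by sequence. The core was the last 11 bases of the 12-nt sequence with most reads over the milk libraries, which belongs to 5.8S rRNA. Sequences of 14 nt without that core were ranked by their mean level in milk. The first, a fragment of 28S rRNA, stood at 33801 ± 4745 RPM and the next one that shared no 11-base run with it, the 18S fragment, at 6021 ± 1201 RPM (SD, n = 3), while the sequence ranked below it had 303 ± 400.3 RPM. RPM, the authors' unit, is the reads of a sequence per 1000000 reads of 8 to 15 nt in its library. Members were the sequences of 11 to 15 nt that held any 11-base run of the 18S fragment, 157 in all, and the 14-nt sequences with exactly 1 mismatch to it, 43 in all, of which 19 were in both sets. That gave 181 members of 229971 distinct sequences. The level in milk chose the 18S fragment, so its high level there is a description and not a result. The same milk libraries are the reference in all comparisons below, which are therefore not independent of that choice.

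The libraries were made from total RNA of the fractions titled MP 12k, MP 35k, MP 70k and MP 100k, with 1 library each, and of milk, with 3 libraries. What MP and k stand for is not explained in the labels. All groups carry the same labels otherwise: commercial, pasteurized, homogenized, skimmed and filtered milk of Holstein cows (Bos taurus), sold as food. Nothing in the labels says how many cows or cartons a library stands for, or that the milk libraries came from separate ones, so p-values rest on the spread between libraries, part or all of which may be technical. Tests of the fractions together take unlike fractions as 1 group, so differences between the fractions count as spread there. The libraries held 1817538 to 2560280 reads of 8 to 15 nt in the fractions and 1658606 to 4572650 in milk.

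18S rRNA is the RNA of the small ribosomal subunit, which reads the messenger RNA, while 28S, 5.8S and 5S rRNA belong to the large subunit. It is cut from the same long precursor as 28S and 5.8S rRNA. Ribosomal RNA makes up most of the RNA of a cell, and milk carries RNA in shed cells, fat globules and extracellular vesicles as well as in free form. Ribonucleases, which cut RNA, are abundant in cow's milk. The assignment to 18S rRNA rests on general knowledge of its sequence in mammals. RefSeq lists the cattle gene RN18S1 as an rRNA gene, and its sequence was not used here, so no position on the 18S rRNA is given.

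The leading form of each of the 5 start positions is printed below 5′ to 3′, from the longest to the shortest, because these forms differ only in where they begin. Positions are counted from 1 at the first base of the 14-nt fragment, and the base before it is -1. Capitals mark bases that lie outside the 14-nt fragment or differ from it.
15 nt, start -1: Cgcagctaggaataa
14 nt, start 1: gcagctaggaataa
13 nt, start 2: cagctaggaataa
12 nt, start 3: agctaggaataa
11 nt, start 4: gctaggaataa
The next set shows the other bases found before the fragment, and the leading single mismatches, which are named by the base of the fragment, the position and the base of the read.
15 nt, G at -1: Ggcagctaggaataa
15 nt, A at -1: Agcagctaggaataa
15 nt, T at -1: Tgcagctaggaataa
14 nt, G1A: Acagctaggaataa
14 nt, A3C: gcCgctaggaataa
14 nt, G9T: gcagctagTaataa
14 nt, G1T: Tcagctaggaataa
14 nt, C2T: gTagctaggaataa
14 nt, G8T: gcagctaTgaataa
13 nt, A13C: cagctaggaatCa
15 nt, C2T: CgTagctaggaataa
Forms longer than 15 nt were not analysed here, since the files stop at that length.

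The 70k and 100k fractions held far fewer reads of the family than milk. Together the members made up 13670.4, 13457, 2924 and 1365 RPM in fractions 12k, 35k, 70k and 100k, against 13570.4, 15398 and 18949 RPM in milk 1, 2 and 3 (15973 ± 2735, SD, n = 3). The 70k and 100k values were 5.46-fold and 11.7-fold below the milk mean. The 35k value lay just under all 3 milk libraries and the 12k value lay between milk 1 and milk 2. Both differed from the milk mean by less than the SD of milk. As shares of the library these were 1.37% (95% Wilson interval 1.35 to 1.38), 1.35% (1.33 to 1.36), 0.292% (0.285 to 0.300) and 0.136% (0.131 to 0.142) in fractions 12k, 35k, 70k and 100k, and 1.36% to 1.89% in milk. Reads carry no molecular identifiers, so intervals cover counting error only. RPM is a share of the reads, so less of one RNA and more of the others cannot be told apart.

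The 5.8S sequences that hold the core took 601348 to 767304 RPM in the fractions and 697933 to 757883 RPM in milk. Against the reads outside these sequences alone, the family stood at 48854, 33756, 8455 and 5865 RPM in fractions 12k, 35k, 70k and 100k and at 44925, 52379 and 78266 RPM in milk 1, 2 and 3, so 70k and 100k stayed below all of milk, and 35k did too. The 28S fragment with its variants, chosen by the same kind of rule, had another order of levels. It had 37171, 46202, 75226 and 34216 RPM in fractions 12k, 35k, 70k and 100k, against 54459, 48354 and 40099.7 RPM in milk 1, 2 and 3. For the 28S family 12k and 100k were thus below each milk library and 35k was within their range, while 70k was above each of them, where the 18S family was below each. The difference between both families was not tested.

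The members shared their last base almost without exception. Of the 2646 family reads in the 100k fraction all ended at position 14, and in the other 6 libraries 2 to 8 reads of 5314 to 86649 ended elsewhere, which left at least 99.9% at that base. Only 14 of the 181 members, all with few reads, ended at another position. The 14-nt fragment and its single-mismatch forms end there by the rule, while other sequences that hold an 11-base run could end at positions 11 to 18. The 28S family also ended mostly at 1 base, with 99.4% to 99.5% of its reads in the fractions and 99.2% to 99.4% in milk, and its share of other ends was higher than that of the 18S family in all 7 libraries. A single sequence with 1 read came from the opposite strand.

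The 5′ ends formed a ladder. The 14-nt fragment, which begins at position 1, had 4897, 5339, 1387 and 613 RPM in fractions 12k, 35k, 70k and 100k, against 4955, 5786 and 7322 RPM in milk 1, 2 and 3. These values rest on 11310, 13670, 2521 and 1189 reads in the fractions and on 8218, 17768 and 33482 reads in milk. 35k lay inside the range of milk and 12k just under it, while 70k and 100k were far below all 3 milk libraries.

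The 15-nt form with C before the fragment had 4029, 3873, 419 and 174 RPM in fractions 12k, 35k, 70k and 100k, against 4099, 4413 and 5173 RPM in milk. The 13-nt form had 3361, 3025, 524 and 214 RPM in the fractions in the same order, against 2947, 3633 and 4264 RPM in milk. For the 15-nt form each fraction was below each milk library, while for the 13-nt form 12k and 35k fell inside the range of milk.

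The shorter forms were rarer. The 12-nt form had 524, 534, 205 and 119.7 RPM in fractions 12k, 35k, 70k and 100k, against 594, 610 and 873 RPM in milk. The 11-nt form, which begins at position 4, had 157, 89.1, 131.5 and 64.5 RPM in the fractions, against 160, 133 and 257 RPM in milk. For the 12-nt form each fraction was below each milk library, while the 11-nt form was inside the range of milk in 12k and just below it in 70k.

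In the 70k and 100k fractions the forms stood at unequal shares of their milk levels. The 15-nt form stood at 9.18% of its milk mean in 70k and 3.82% in 100k, the 13-nt form at 14.5% and 5.91%, and the 14-nt fragment at 23.0% and 10.2%. The 12-nt form kept 29.6% and 17.3% of its milk mean and the 11-nt form 71.7% and 35.2%. Among these forms the order of the shares was the same in both fractions, and it follows length except that the 14-nt fragment kept more than the 13-nt form. Reads of 10, 9 and 8 nt with the same last base, outside the members, did not continue it. They stood at 45.3%, 39.9% and 51.8% of their milk means in 70k and at 23.9%, 18.7% and 38.3% in 100k. In 12k the 5 forms stood at 75.7% to 93.0% of their milk means and in 35k at 48.6% to 88.7%.

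The make-up of the family differed accordingly. The 15-nt form was 29.5%, 28.8%, 14.3% and 12.8% of the family in fractions 12k, 35k, 70k and 100k, against 28.7% ± 1.45 in milk (SD, n = 3), and the 13-nt form 24.6%, 22.5%, 17.9% and 15.6%, against 22.6% ± 0.941. The 14-nt fragment was 35.8%, 39.7%, 47.4% and 44.9% of it, against 37.6% ± 1.06 in milk. The 12-nt form was 3.83%, 3.97%, 7.02% and 8.77% of it, against 4.31% ± 0.328 in milk, and the 11-nt form 1.15%, 0.662%, 4.50% and 4.72%, against 1.13% ± 0.249. For all 5 forms the 70k and 100k fractions lay outside the range of milk. The Wilson intervals of these shares in 70k and 100k were within 2 percentage points on either side of each value.

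Ratios of 2 sequences within a library do not depend on its scaling. Relative to the 14-nt fragment, the 13-nt form stood at 0.686, 0.567, 0.378 and 0.348 in fractions 12k, 35k, 70k and 100k, against 0.602 ± 0.0235 in milk (SD, n = 3). The 12-nt form stood at 0.107, 0.10, 0.148 and 0.195, against 0.115 ± 0.00822 in milk. The 15-nt form stood at 0.823 and 0.725 in 12k and 35k and at 0.302 and 0.284 in 70k and 100k, against 0.765 ± 0.0604 in milk. Taken as 4 libraries against 3, the log2 ratios differed by -0.68 for the 15-nt form with C, by -0.34 for the 13-nt form, by 0.21 for the 12-nt form and by -0.29 for the 15-nt form with G. An exact permutation test, two-sided, over the 35 splits gave p = 0.343, 0.400, 0.514 and 0.229 in that order. Each was 0.514 after Benjamini-Hochberg adjustment over these 4 ratios. The smallest p that the design allows is 0.0571, above the threshold of 0.05, so no ratio could have passed. None of the 4 reached that smallest p. The test takes unlike fractions as 1 group, so it cannot decide whether a single fraction differs from milk. For the 15-nt form with C the ratios of 12k and 35k lay within the range of milk and those of 70k and 100k below it. For the 13-nt form 12k lay above milk and the other 3 fractions below it. For the 12-nt form 70k and 100k lay above milk. A difference of 1 fraction from another rests on 1 library each and was not tested. In the 28S family the corresponding 15-nt to 14-nt ratio was 0.173, 0.187, 0.265 and 0.324 in fractions 12k, 35k, 70k and 100k, against 0.175 to 0.207 in milk, so there 70k and 100k were above milk where the 18S ratio was below it.

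The base before the fragment was C in most 15-nt reads, less so in the 70k and 100k fractions. Of the 15-nt reads that held the whole fragment, C stood at position -1 in 93.2%, 94.6%, 79.6% and 73.6% of them in fractions 12k, 35k, 70k and 100k, against 93.5%, 92.4% and 91.2% in milk 1, 2 and 3. The form with G had 159, 137.5, 59.4 and 19.6 RPM in the fractions, against 185, 245 and 299 RPM in milk. The form with A had 119, 40.2, 38.0 and 38.2 RPM in the fractions, against 63.9, 71.3 and 163 RPM in milk, and the form with T had 14.3, 43.0, 9.90 and 4.64 RPM, against 36.8, 45.6 and 38.9 RPM. The 3 rarer forms were thus lower than the milk mean in 70k and 100k too, but by less than the form with C.

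As a share of these 15-nt reads, A stood out in the 100k fraction, though its RPM there was below each milk library. It was the base at -1 in 74 of 459 reads there, 16.1% (95% Wilson interval 13.04 to 19.8), and in 2.74%, 0.983% and 7.22% of the reads in 12k, 35k and 70k, against 1.46% to 2.88% in milk. The shares of G and T were also larger in 70k and 100k. G had 11.3% and 8.28% there, against 4.22% to 5.27% in milk. T had 1.88% and 1.96% there, against 0.686% to 0.955% in milk. Among 13-nt reads with the last 12 bases of the fragment, G and T were each the first base of 3.05% in 100k, against 0.363% to 0.873% in milk. Of these reads the first base was A in 48 of 492 in 100k, 9.76% (7.44 to 12.7), and in 0.379% to 1.22% in the other fractions, against 0.185% to 0.645% in milk. This 13-nt sequence, Aagctaggaataa with C2A, was chosen after its values were seen. It had 12.99, 37.5, 5.50 and 24.8 RPM in fractions 12k, 35k, 70k and 100k, against 19.3, 6.84 and 13.6 RPM in milk, so 35k and 100k stood above each milk library. The share of all tested sequences above all of milk was not computed, so nothing is read from this position. The level of this 13-nt sequence did not pass the test in any comparison (edgeR's quasi-likelihood test, adjusted p = 0.514 to 0.999). The 15-nt sequence ATcagctaggaataa, with A at -1 and G1T, was also chosen after its values were seen and was too rare to be tested. It had 26 reads in 100k, 13.4 RPM, and 0 in the other 3 fractions, against 1, 0 and 1 reads in milk 1, 2 and 3.

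The same base was more frequent in 100k in the other leading families, though not in each form. A was the first base of 11.4% of the 14-nt 28S reads in 100k, of 0.0988% to 0.110% in the other fractions and of 0.102% to 0.243% in milk. In the 13-nt form of the 5.8S end it was the first base of 8.90% of the reads in 100k, 1.37% to 4.02% in the other fractions and 2.51% to 5.24% in milk. In the 14-nt 18S reads it was 1.14% in 100k, 0.716% to 1.20% in the other fractions and 0.964% to 1.11% in milk, and in the 15-nt 28S reads 2.47% in 100k, 2.51% to 3.70% in the other fractions and 2.10% to 2.93% in milk. The 14-nt 18S and 15-nt 28S forms in 100k therefore lay within or next to the other libraries.

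Single mismatches were spread over the whole fragment, and all 42 possible ones were found, beside 1 member with an unread base. Reads with 1 mismatch were 4.33%, 4.18%, 5.62% and 5.78% of the 14-nt reads in fractions 12k, 35k, 70k and 100k, against 6.04%, 4.45% and 4.08% in milk. Without position 1 they were 2.86%, 3.03%, 3.63% and 2.77% in the fractions, against 4.39%, 2.85% and 2.79% in milk. A mismatch at position 1 is at once the 13-nt form with another base in front, so it cannot be told from a change of the 5′ end. G1A led with 41.6, 38.7, 17.1 and 7.22 RPM in fractions 12k, 35k, 70k and 100k, against 56.1, 58.0 and 71.5 RPM in milk. G1T had 31.6, 24.6, 9.90 and 7.22 RPM in the fractions, against 28.9, 35.8 and 21.9 RPM in milk.

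Milk 1 stood apart in changes of G to T. At positions 2 to 14 they made up 0.550%, 0.624%, 0.487% and 0.792% of the 14-nt reads in fractions 12k, 35k, 70k and 100k, the last 2 from 13 and 10 reads, against 1.76%, 0.506% and 0.570% in milk 1, 2 and 3. G9T alone had 13.4, 15.2 and 1.65 RPM in 12k, 35k and 70k and 0 reads in 100k, which allows up to 1.55 RPM, against 59.7, 15.3 and 17.9 RPM in milk. G8T had 10.4, 14.8, 2.75 and 3.61 RPM in the fractions, against 25.3, 12.7 and 19.7 RPM in milk. Milk 1 was also highest for G to T in the 28S fragment, at 2.49%, against 1.11% and 1.25% in the other milk libraries and 1.02% to 1.34% in the fractions.

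A3C had 23.8, 24.2, 8.25 and 0.516 RPM in fractions 12k, 35k, 70k and 100k, the last from 1 read, against 28.3, 32.2 and 40.2 RPM in milk, and changes of A to C as a whole were 1.06%, 0.946%, 1.20% and 0.634% of the 14-nt reads in the fractions, against 0.957% to 1.17% in milk. A13C on the 13-nt form had 20.3 and 15.6 RPM in 12k and 35k and 4 and 1 reads in 70k and 100k, against 19.9, 22.1 and 31.3 RPM in milk. C2T, a change of C to T next to the 5′ end, differed between forms in 12k. On the 14-nt fragment it had 1 read in 12k, 20.3 and 5.50 RPM in 35k and 70k and 3 reads in 100k, against 15.1, 30.9 and 23.0 RPM in milk, and on the 15-nt form 2 reads in 12k, 3.91 RPM in 35k, 4 reads in 70k and 0 in 100k, against 13.3, 27.7 and 24.3 RPM in milk. The next C2T forms, chosen after their values were seen, had more reads in 12k, though the 13-nt one was still below each milk library. The 13-nt form Tagctaggaataa had 9.96, 3.91, 11.6 and 7.74 RPM in fractions 12k, 35k, 70k and 100k, against 10.9, 20.5 and 20.6 RPM in milk. The 15-nt form GgTagctaggaataa had 16, 1, 0 and 0 reads in the fractions, against 0, 7 and 47 reads in milk.

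Sequence by sequence, 2 members were called lower in the 100k fraction and none in any other comparison. Over the whole data set, 5681 sequences had at least 10 reads in at least 3 libraries and were tested with edgeR's quasi-likelihood test, among them 32 members, which held 96.6% to 99.3% of the family reads in the fractions and 99.1% to 99.4% in milk. The remaining members were too rare to be tested. Against milk 0 of 32 members were called over the 4 fractions together and 0 in 12k, 35k and 70k, where 0.0352%, 1.67%, 2.36% and 1.13% of all tested sequences were called (0.0352%, 0.0704%, 0.123% and 0.616% called lower). In 100k 2 of 32 were called, both lower, where 3.93% of all sequences were called and 1.81% were called lower. At an unadjusted p under 0.05 the numbers of members were 1, 1, 1, 7 and 12 over the fractions together, 12k, 35k, 70k and 100k. Against these stood 17.5%, 10.4%, 12.6%, 23.2% and 23.2% of all sequences. DESeq2 called 1, 0, 1, 7 and 13 of the 32 members, all lower. Of all 5681 sequences it called 413, 184, 248, 839 and 914. Among these, 152, 62, 89, 672 and 752 were lower. With limma 0 members were called in each comparison, beside 4, 0, 0, 0 and 0 of all 5681 sequences.

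The called members were the 15-nt form with C (log2 fold change -4.49, SE 1.09, edgeR adjusted p = 0.0177) and the 13-nt form (log2 fold change -3.88, SE 1.07, edgeR adjusted p = 0.0343). The 14-nt fragment had a log2 fold change of -3.10 in 100k (SE 0.996, edgeR adjusted p = 0.0656) and of -2.53 in 70k (SE 0.959, edgeR adjusted p = 0.121). In 70k the 15-nt and 13-nt forms had -3.84 (edgeR adjusted p = 0.0545) and -3.20 (edgeR adjusted p = 0.0753). Each of these tests sets 1 fraction library against milk, takes its spread from the milk libraries and assumes that the fraction varies like them. The fit of the fractions together also counts differences between unlike fractions as spread. In 12k and 35k the fragment had log2 fold changes of -0.34 and -0.62 (SE 0.828 and 0.843, edgeR adjusted p = 0.979 and 0.897), and over the 4 fractions together of -1.21 (SE 0.777, edgeR adjusted p = 0.447). Both calls ended without TMM scaling (edgeR adjusted p = 0.0932), without the core sequences (0.0687 and 0.0870), without milk 2 (0.415) and without 12k, 35k or 70k (0.0538 to 0.0922), and with limma (limma adjusted p = 0.130). In 100k all calls then numbered 0 of 5681 without TMM, 2 of 5624 without the core sequences and 1 of 4547 without milk 2. They numbered 43 of 4789 without 12k, 0 of 4596 without 35k, 0 of 4715 without 70k and 0 of 5681 with limma. Over the 12 alternatives the log2 fold change lay between -5.89 and -4.09 for the 15-nt form and between -5.24 and -3.47 for the 13-nt form. The median log2 fold change of all tested sequences was -0.98 in 70k and -0.87 in 100k with TMM, and -0.62 and -1.14 without it.

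On the RPM scale, with values under 3 reads set to 3 reads, the median log2 ratio of the 32 tested members to the milk mean was -0.32, -0.37, -1.81 and -2.36 in fractions 12k, 35k, 70k and 100k, against -0.61, -0.18, -0.62 and -1.002 over all 5681 sequences. In 100k 15 of the 32 had fewer than 3 reads, so their true ratio may be lower. Below all 3 milk libraries were 16, 17, 29 and 29 of the 32 tested members in 12k, 35k, 70k and 100k, where 30.5%, 24.3%, 37.5% and 40.8% of all tested sequences were. In all 4 fractions at once this held for 7 of 32, beside 10.2% of all sequences. The members share bases and a parent RNA and are not independent of each other. Each of the 32 reached 10 reads in at least 1 fraction, and 12 of them did so in both 70k and 100k.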

How the data were processed

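The members, lists and tests were chosen with earlier results of these data known. Per the file headers, the authors deposited read counts of each distinct sequence of 8 to 15 nt and its RPM, and recomputing the deposited RPM from them matched within 0.0005. In milk 1 the deposited RPM column also holds its own total as a last value, which doubles its sum, so its unit was entered as a score. The 1 row without a sequence that closes each file was left out. Per the labels, inserts of about 8 to 35 nt were sequenced for 51 cycles. No trimming step, filter, aligner or genome build is named in the labels or headers. Totals cover the 8 to 15 nt window and not whole libraries, and 3 reads, the limit a count of 0 allows, are 0.656 to 1.81 RPM.

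Members were placed on the 14-nt fragment without gaps by their longest exact run. Shares have 95% Wilson intervals. A sequence was tested if 3 or more libraries had 10 or more of its reads. The counts were fitted with edgeR 4.0.16 (R 4.3.3), with TMM factors, Benjamini-Hochberg adjustment at 0.05, 2 group means for the fractions together and 5 group means for single fractions. This test gives no standard error. The SE printed is the size of the log2 fold change divided by the square root of the F statistic. DESeq2 1.42.0, limma 3.58.1 on log2(RPM + 1), no TMM, other read minimums, omitting the core sequences and omitting each library once were alternatives. On simulated data edgeR recovered 93% of 4-fold and 97% of 16-fold changes for the fractions together, and 51% and 94% of them for 70k. The simulation used a fixed spread, the same for all sequences and not estimated from these libraries. It changed only sequences above a set level, so these percentages may not hold for the real libraries. Pairs of milk libraries differed beyond counting error over the tested members (chi-square per degree of freedom 9.56 to 12.7), so they were counted as 3 samples. Technical repeats could differ in this way too. The sequences named are the 14-nt fragment, the 12 members highest in milk, the 3 with most reads in each fraction, called members (at most 8 per direction), the 6 leading 14-nt mismatches and the leader of each start and end group that held at least 1% of the family in any library, beside the 4 members said to be chosen after their values were seen.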

Additional observations from a re-analysis of the deposited data

Results flagged for a closer look

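Reads shorter than the members ended at the same last base as the 14-nt 18S fragment and stood above the limit that a count of 0 allows, 0.656 to 1.81 RPM, in all 7 libraries. They lie outside the comparisons above, and at this length they can come from other RNAs. The 10-nt sequence ctaggaataa had 105, 109, 57.8 and 30.4 RPM in fractions 12k, 35k, 70k and 100k, against 171, 128 and 83.1 RPM in milk 1, 2 and 3, with a milk mean of 127.5 ± 44.1 RPM (SD, n = 3). The 9-nt sequence taggaataa had 58.4, 50.4, 35.2 and 16.5 RPM in the fractions, against a milk mean of 88.2 ± 14.5 RPM. The 8-nt sequence aggaataa had 139, 84.8, 31.4 and 23.2 RPM in the fractions, against a milk mean of 60.6 ± 6.63 RPM, and unlike the longer ones it was above each milk library in 12k and 35k.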

How the results depend on the processing

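No paired analysis was possible because each fraction has 1 library and the labels link none of them to a particular milk library. Counts of called sequences depended strongly on the setting, and the cause was not tested. For the fractions together, 12k, 35k, 70k and 100k they were 2, 95, 134, 64 and 223 with edgeR and TMM. They became 0, 10, 18, 0 and 0 without TMM, 413, 184, 248, 839 and 914 with DESeq2, 4, 0, 0, 0 and 0 with limma, 0, 30, 43, 51 and 70 when 1 read in 2 libraries was enough (the low minimum), 25, 32, 45, 302 and 372 when 50 reads in 3 libraries were needed (the high minimum), and 0, 62, 75, 0 and 2 without the core sequences. Leaving out 1 library gave 0 to 0, 0 to 80, 0 to 105, 0 to 493 and 0 to 555.

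Members called in 70k numbered 0 of 32 with edgeR, 7 of 32 with DESeq2, 3 of 128 with the low minimum and 2 of 13 with the high one. Of all tested sequences 64 and 839 of 5681, 51 of 77098 and 302 of 1184 were called there. In 100k members called numbered 2 of 32 with edgeR, 13 of 32 with DESeq2, 3 of 128 with the low minimum and 5 of 13 with the high one. Of all tested sequences 223 and 914 of 5681, 70 of 77098 and 372 of 1184 were called there. Members called in 100k numbered 0 of 32 without TMM, with limma and without the core sequences. Beside these, 0 of 5681, 0 of 5681 and 2 of 5624 sequences were called. DESeq2 called 1 of 32 for the fractions together and 1 of 32 in 35k, beside 413 and 248 of 5681 sequences. Leaving out 1 library gave 0 to 2 members in 70k, with 2 of 32 without milk 1 and 1 of 29 without milk 3. Beside these, 493 of 4734 and 34 of 4657 sequences were called. In 100k it gave 0 to 5 members, with 5 of 32 without milk 1 and 4 of 29 without milk 3. Beside these, 555 of 4734 and 204 of 4657 sequences were called. Without milk 2, 12k, 35k or 70k 0 members were called in 100k. Beside these, 1 of 4547, 43 of 4789, 0 of 4596 and 0 of 4715 sequences were called.

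For the 14-nt fragment the log2 fold change passed in 70k with DESeq2 (-2.77) and the low minimum (-3.78), and in 100k with DESeq2 (-3.54), the low minimum (-4.46) and the high one (-2.68). Leaving out 1 library gave -2.67 to -1.84 in 70k and -3.71 to -3.07 in 100k, where it passed without milk 1 and milk 3. In 12k the sign turned to 0.24 with the high minimum, and to 0.060 and 0.04 without 100k and without milk 3, in a range of -0.68 to 0.060 over the left-out libraries. Leaving out 1 library gave -0.98 to -0.16 in 35k and -1.63 to -0.46 over the fractions together, and the high minimum gave -0.084 and -0.62.

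The family total, fractions minus milk, was -8119 RPM. It was -34291 RPM against reads outside the core sequences, and -10058 to -5956 RPM when 1 library was left out. Leaving out 1 library, the log2 ratios to the fragment lay between -0.95 and -0.44 for the 15-nt form with C, -0.52 and -0.19 for the 13-nt form, 0.024 and 0.35 for the 12-nt form and -0.42 and -0.18 for the 15-nt form with G. Without 100k the first 3 were -0.44, -0.19 and 0.024, and without 70k the first was -0.46. The 14-nt fragment stayed the anchor when sequences were ranked by summed reads or median RPM. Counting error is widest in 100k, where the family had 2646 reads at a total depth within the range of the other libraries.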
